A study of Mus musculus with 11 samples.

Results

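Genes that restrain signaling through the mitogen-activated protein kinases (MAPKs) were examined in the gingival epithelium of mice given diphtheria toxin (DT) or PBS. The 10 genes are the phosphatase genes Dusp1, Dusp4, Dusp5, Dusp6, Dusp7, Dusp10 and Dusp16 and the Sprouty genes Spry1, Spry2 and Spry4, taken by symbol from the 19170 genes with values. The members were chosen by their values in the DT against PBS comparison itself, so that difference is described here and not tested for them. The mice were langerin-DTR mice, which express the DT receptor from the langerin gene and therefore lose langerin-expressing cells, such as Langerhans cells (LCs), when given DT. All 11 carried the receptor. The 5 PBS mice and the 6 DT mice were injected at 17, 24 and 31 days of age, and epithelium was taken at 8 weeks. No DT-treated mouse without the receptor was analysed here, so an effect of DT itself and an effect of the loss of langerin-expressing cells cannot be told apart.

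MAPK cascades pass signals from growth factor receptors and stress sensors to the nucleus through the kinases ERK, JNK and p38. Dual-specificity phosphatases (DUSPs) switch these kinases off by removing phosphate from both the threonine and the tyrosine of the activation loop. Sprouty proteins act further up, between receptor tyrosine kinases and Ras, and transcription of many members of both families is itself raised by MAPK signaling, which closes a negative feedback loop. In stratified epithelia such as that of the gingiva, signaling from the EGF receptor to ERK is known to bear on the balance of keratinocyte proliferation and differentiation.

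Promoter sequence was available for 8 of the 10 genes, and Dusp4 and Spry4 had no entry. The 250 bases before the RefSeq transcription start (GRCm38.p6) were searched on both strands for 7 motifs. These were binding motifs of factors that MAPKs act on, the glucocorticoid response element and the TATA box core. The stretches below, from base -200 to base -51 before the start and written 5′ to 3′ on the strand of the gene, are those of Dusp1 and Dusp6, the pair of genes with no overlap between the groups of mice, and of Dusp5, which held the most matches. Capitals mark a motif match. The Dusp1 stretch lies at chr17:26508523-26508672 on the minus strand, that of Dusp6 at chr10:99263031-99263180 on the plus strand and that of Dusp5 at chr19:53528945-53529094 on the plus strand.
Dusp1: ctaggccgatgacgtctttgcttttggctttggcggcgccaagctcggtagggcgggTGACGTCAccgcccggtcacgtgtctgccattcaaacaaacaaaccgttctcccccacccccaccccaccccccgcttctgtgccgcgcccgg
Dusp6: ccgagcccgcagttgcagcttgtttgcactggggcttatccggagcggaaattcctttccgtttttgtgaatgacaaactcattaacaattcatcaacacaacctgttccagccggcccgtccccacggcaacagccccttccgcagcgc
Dusp5: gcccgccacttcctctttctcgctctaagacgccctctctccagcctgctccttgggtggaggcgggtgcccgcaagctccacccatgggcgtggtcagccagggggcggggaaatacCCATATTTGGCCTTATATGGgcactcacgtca
Dusp1 held the full cAMP response element, TGACGTCA, bound by CREB and ATF factors, at bases -143 to -136. Of 32851 RefSeq promoters searched over the same length, 1.55% held it. Dusp5 held a pair of adjoining CArG boxes, the core of the serum response element, at bases -82 to -73 and -72 to -63, and 1.47% of promoters held at least 1. Among the genes whose stretches are not printed, Dusp16 held an Egr motif, GCGNGGGCG, on the minus strand relative to the gene at bases -138 to -130, found in 4.7% of promoters. Dusp6, Dusp7, Dusp10, Spry1 and Spry2 held none of the 7 motifs searched, which besides these were the AP-1 motif TGANTCA (in 6.75% of promoters), the ETS motif CCGGAAGT (2.88%), the glucocorticoid response element (0.00913%) and the TATA box core TATAAA (12.4%). The matches did not overlap one another. A match is a run of letters and not a measured binding site.

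Values are normalized counts, which are reads per gene divided by a size factor of each mouse. Each mouse had 17509328 to 24325513 reads on genes, a depth at which Dusp1 rested on at least 3667 reads in every mouse and Spry4 on 2 to 10 reads. Depth did not separate the groups (two-sided exact permutation test, p = 0.496). The keratinocyte markers Krt5, Krt14, Krt15, Krt4, Krt13, Krt6a, Cdh1 and Trp63 were all present, with a sum between 1830000 and 2124000 normalized counts per mouse. The 8 LC markers summed to between 2634 and 5696 after PBS and between 1996 and 3549 after DT. Cd207, which encodes langerin, lay between 10.0 and 43.0 after PBS and between 15.8 and 21.6 after DT. Most of the LC sum came from markers other than Cd207, among them Cd74 at 564 to 2251, Epcam at 520 to 818 and Mfge8 at 421 to 838. Of 11 cell type lists, 0 differed in summed level between DT and PBS (two-sided exact permutation test, lowest adjusted p = 0.515, and 0 lists at an unadjusted p under 0.05). The paper reports that LC frequencies had returned to normal at the age sampled. PBS 3 and PBS 5 lay apart from the other PBS-treated mice on the first principal component of the 500 most variable genes, at 17.2 and 20.9 against -13.0 to -11.9, and results are given without them where this matters. They also had the highest Cd207, at 32.2 and 43.0. In whole epithelium, fewer cells of a type and less RNA per cell cannot be told apart.

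Dusp1, a nuclear phosphatase with a preference for p38 and JNK, had the highest level per kilobase of transcript of the 10 genes in every mouse. Its normalized counts were 5267, 3563, 4691, 7255 and 3972 in PBS 1 to PBS 5. In the 6 DT-treated mice the lowest was 8057, the median 9416 and the highest 11872. The groups did not overlap, and the lowest DT-treated mouse, DT 2, had 1.11 times the level of the highest PBS-treated mouse, PBS 4. The log2 difference of DT minus PBS on the scale of log2(normalized count + 1) was 1.02 (SE 0.15), a 2.03-fold higher level. Leaving out each mouse in turn moved it between 0.92 (without PBS 2) and 1.17 (without PBS 4).

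Dusp6, a cytoplasmic phosphatase that is specific for ERK, had a far lower level per kilobase, given below. It had 119, 97.2, 132, 155 and 87.1 normalized counts across PBS 1 to PBS 5. After DT the lowest value was 166, the median 209 and the highest 215. PBS 4 and DT 2 were again the highest PBS-treated and the lowest DT-treated mouse, and every DT-treated mouse lay above every PBS-treated mouse, here by a factor of 1.07 between these nearest mice. The log2 difference was 0.77 (SE 0.13), a 1.71-fold higher level.

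The other phosphatases with ERK among their substrates overlapped between the groups. Dusp5, which is nuclear and specific for ERK, had 668, 575, 927, 742 and 814 normalized counts across PBS 1 to PBS 5. After DT it ranged from 797 to 1042 with a median of 899. All 6 DT-treated mice were above the PBS mean of 745, and 2 were above PBS 3, the highest PBS-treated mouse. The log2 difference of Dusp5 was 0.29 (SE 0.10), and 0.45 without PBS 3 and PBS 5. An antisense gene, AC137853.2, shares 547 exonic bases with Dusp5 in the GENCODE annotation, and as no source used here says whether strand was used in counting, reads from the antisense gene may be included.

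Dusp7, the cytoplasmic relative of Dusp6, had 2648, 2834, 3018, 2451 and 2579 normalized counts across PBS 1 to PBS 5 and 2256 to 2731 in the DT mice (median 2508). Its log2 difference was -0.12 (SE 0.065), opposite in sign to that of Dusp6, and 3 of the 6 DT-treated mice lay below the whole PBS group. Dusp4, a nuclear phosphatase that is also a transcriptional target of ERK, had 31.7, 15.5, 38.2, 32.8 and 77.6 normalized counts across PBS 1 to PBS 5. After DT it ranged from 9.07 to 44.7 with a median of 31.8. Its spread among mice of a group was the widest of the 9 members that averaged 10 or more normalized counts, with an SD of 0.79 on the log2 scale, at percentile 98.5 of the 13477 genes that did so. The log2 difference of -0.30 (SE 0.39) was smaller than that spread, and it was 0.0076 without DT 3 and 0.13 without PBS 3 and PBS 5.

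Dusp10 and Dusp16 act chiefly on p38 and JNK. Dusp10 had 39.6, 30.1, 36.2, 47.4 and 49.3 normalized counts across PBS 1 to PBS 5, and after DT from 18.1 to 42.4 with a median of 34.8. The log2 difference was -0.30 (SE 0.21). DT 3 alone was below the whole PBS group, and the difference was -0.14 without it. Dusp16 had 2770, 2262, 2508, 2907 and 2727 normalized counts across PBS 1 to PBS 5, and from 2459 to 2953 with a median of 2696 after DT. Its log2 difference was 0.036 (SE 0.065), which turned to -0.018 without PBS 2. In both genes the groups overlapped, unlike in Dusp1, which shares these substrates.

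Among the Sprouty genes, Spry1 had 508, 568, 489, 538 and 528 normalized counts across PBS 1 to PBS 5. After DT it ranged from 534 to 710 with a median of 595. DT 2 was the single DT-treated mouse within the PBS range, and the log2 difference was 0.22 (SE 0.076). Spry1 shares 710 exonic bases with the antisense gene Gm42922, whose mean was 10.0 normalized counts. Spry2 had 399, 381, 374, 419 and 369 normalized counts across PBS 1 to PBS 5. After DT it ranged from 353 to 529 with a median of 420. These DT-treated mice lay on both sides of the PBS group, 3 above and 1 below, and the log2 difference was 0.14 (SE 0.087), or 0.080 without DT 6, the highest mouse. Spry4 was close to the limit of detection, with 2.73 to 5.83 normalized counts after PBS and 2.29 to 8.45 after DT, and its log2 difference of 0.35 (SE 0.33) rests on too few reads to be read as a direction.

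**Figure D1:**
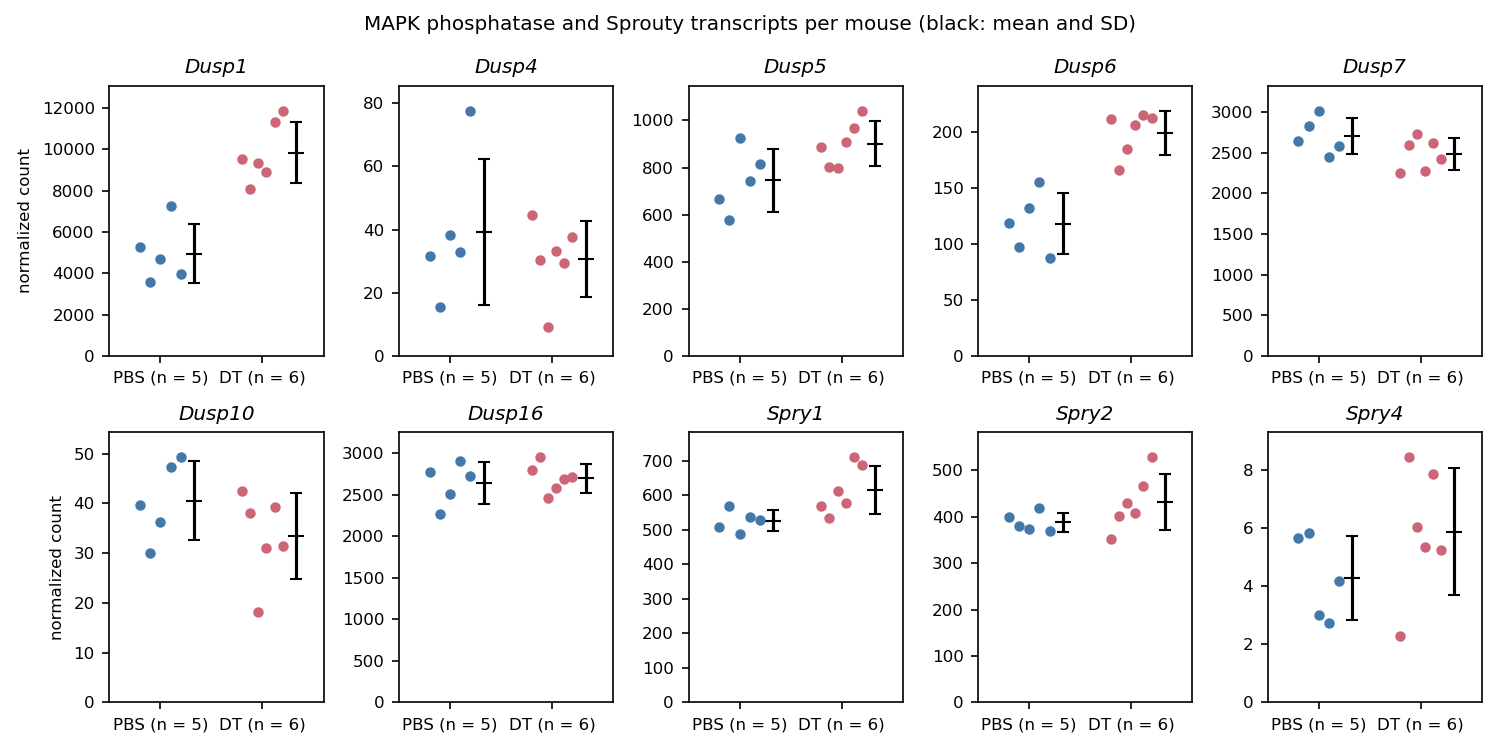
Normalized counts of the 10 genes in each PBS-treated (blue, n = 5) and DT-treated (red, n = 6) mouse, one panel per gene with the vertical axis from 0, and the mean with its SD in black. Points of the 2 groups do not overlap for Dusp1 and Dusp6 and overlap for the other 8 genes.

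Of the 10 genes, 7 had a positive log2 difference, against 47.3% of all genes, and their median was 0.18 against -0.011 over all genes. In the limma fit over all 19170 genes, which used a threshold of 0.1 on the Benjamini-Hochberg adjusted p, 107 genes (0.558%) passed, 60 of them higher (0.313%) and 47 lower (0.245%) after DT. This count rested on single mice, from 27 genes without DT 5 to 259 without PBS 5. Dusp1 and Dusp6 were the 2 members past the threshold, both higher. Every DT-treated mouse was above every PBS-treated mouse in 173 genes (0.902%), again Dusp1 and Dusp6 among them. Since the 10 genes were taken from this comparison, nothing further is read from these counts.

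As transcripts differ in length, levels were compared between genes as normalized counts per kilobase of the longest transcript. This assumes reads from along the whole transcript, which was not tested. The study's methods also name a guide for libraries made from transcript ends, for which levels would not be divided by length. The order was Dusp1, Dusp7, Dusp16, Dusp5, Spry1, Spry2, Dusp6, Dusp10, Dusp4 and Spry4, and it was the same after PBS and after DT. Per kilobase, Dusp1 stood at 2487 ± 726 (SD, n = 5) in PBS mice against 4942 ± 739 (SD, n = 6) in DT mice, and Dusp6 at 42.2 ± 9.69 (SD, n = 5) and 71.2 ± 7.08 (SD, n = 6). Of the 9 pairs of neighbors in this order, 7 differed, with the higher gene higher in 11 of 11 mice (two-sided exact sign-flip permutation test over mice, adjusted p = 0.00126). The narrowest of these steps was that from Dusp7 to Dusp16, with a log2 ratio of 0.62 ± 0.21 (SD, n = 11). Without division by length, Dusp16 averaged 2635 normalized counts after PBS and 2696 after DT, against 2706 and 2483 for Dusp7. This step, and an order that is the same in both groups, therefore rest on the division by length. Spry1 and Spry2 did not differ beyond their spread, with Spry1 higher in 6 of 11 mice (log2 ratio 0.07 ± 0.11, exact sign-flip permutation test, adjusted p = 0.078), nor did Dusp10 and Dusp4 (0.19 ± 0.51, exact sign-flip permutation test, adjusted p = 0.238). By coding length, however, Spry1 was higher than Spry2 in 11 of 11 mice (0.49 ± 0.11, exact sign-flip permutation test, adjusted p = 0.00126). Undivided, Spry1 averaged 526 normalized counts after PBS and 615 after DT, and Spry2 389 and 431. By the length of all exons, Dusp16 and Dusp5 did not differ (0.094 ± 0.24, exact sign-flip permutation test, adjusted p = 0.268).
Shares of the summed level were computed among the members of each family, as a further description. Other DUSP genes, such as Dusp14 and Dusp22, are outside this sum. Dusp1 made up 58.1% ± 6.38 (SD, n = 5) of the summed level per kilobase of the 7 phosphatase genes in PBS mice and 73.5% ± 2.6 (SD, n = 6) after DT. Dusp7, the next of the 7, made up 20.5% ± 4.33 after PBS and 11.7% ± 1.58 after DT, and Dusp6 no more than 1.2% in any mouse. A higher Dusp1 lowers every other share, and Dusp7 itself stood at 842 ± 69.3 per kilobase after PBS and 773 ± 60.5 after DT. Of the 3 Sprouty genes, Spry1 and Spry2 held nearly equal shares in both groups by the length of the longest transcript, at 50.4% and 49.4% after PBS and 51.7% and 48.0% after DT.

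**Figure D2:**
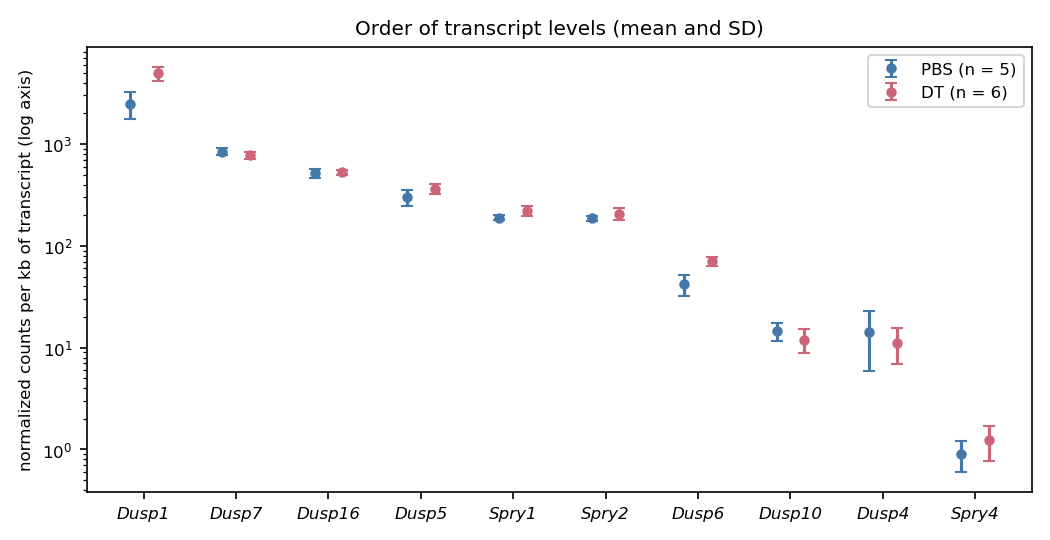
Mean level of each gene in normalized counts per kilobase of transcript (log axis) after PBS (blue, n = 5) and DT (red, n = 6), with SD as bars and genes in order of level over all mice. The order is the same in both groups, from Dusp1 at 2487 after PBS and 4942 after DT down to Spry4.

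Variation among mice that had the same treatment was not used to choose the genes. Deviations of the log2 values from the group means were therefore correlated over the 11 mice for each of the 45 pairs. Of these, 28 had a positive Pearson's r, 6 had an unadjusted p under 0.05 and 0 passed the threshold of 0.05 after adjustment over the 45 pairs, by Pearson's r or by Spearman's rho. The pair with the highest r was Dusp1 and Dusp6 (r = 0.854, permutation p = 0.00611, adjusted 0.0973; rho = 0.836, permutation p = 0.00661, adjusted 0.285). Without PBS 2 and PBS 4, the mice at the ends of the Dusp1 range, r was 0.727. It was 0.885 over the PBS-treated and 0.761 over the DT-treated mice alone. Dusp1 also had r = 0.598 with Spry2 (permutation p = 0.0088, adjusted 0.099; rho = 0.709, permutation p = 0.0149, adjusted 0.285), and 0.709 without PBS 2 and PBS 4. This pair was the 1 that passed when DT 1 was left out (r = 0.752, permutation p = 0.00081, adjusted 0.0364).
Dusp10 and Dusp16, both active on p38 and JNK, had r = 0.773 (permutation p = 0.00292, adjusted 0.0973; rho = 0.700, permutation p = 0.0253, adjusted 0.285), and 0.823 without DT 1 and DT 3. Dusp4 and Dusp10 had r = 0.849 (permutation p = 0.00649, adjusted 0.0973; rho = 0.582, permutation p = 0.0757, adjusted 0.397), which rests on DT 3 and PBS 2, since r was 0.386 without them. Both genes rest on few reads, and in DT 3, the lowest mouse for each, Dusp4 had 9 reads and Dusp10 had 18. Spry1 and Spry2 had r = 0.713 (permutation p = 0.045, adjusted 0.338; rho = 0.764, permutation p = 0.021, adjusted 0.285), and 0.742 without DT 2 and DT 5. For this pair r was 0.153 over the PBS-treated and 0.805 over the DT-treated mice alone.

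**Figure D3:**
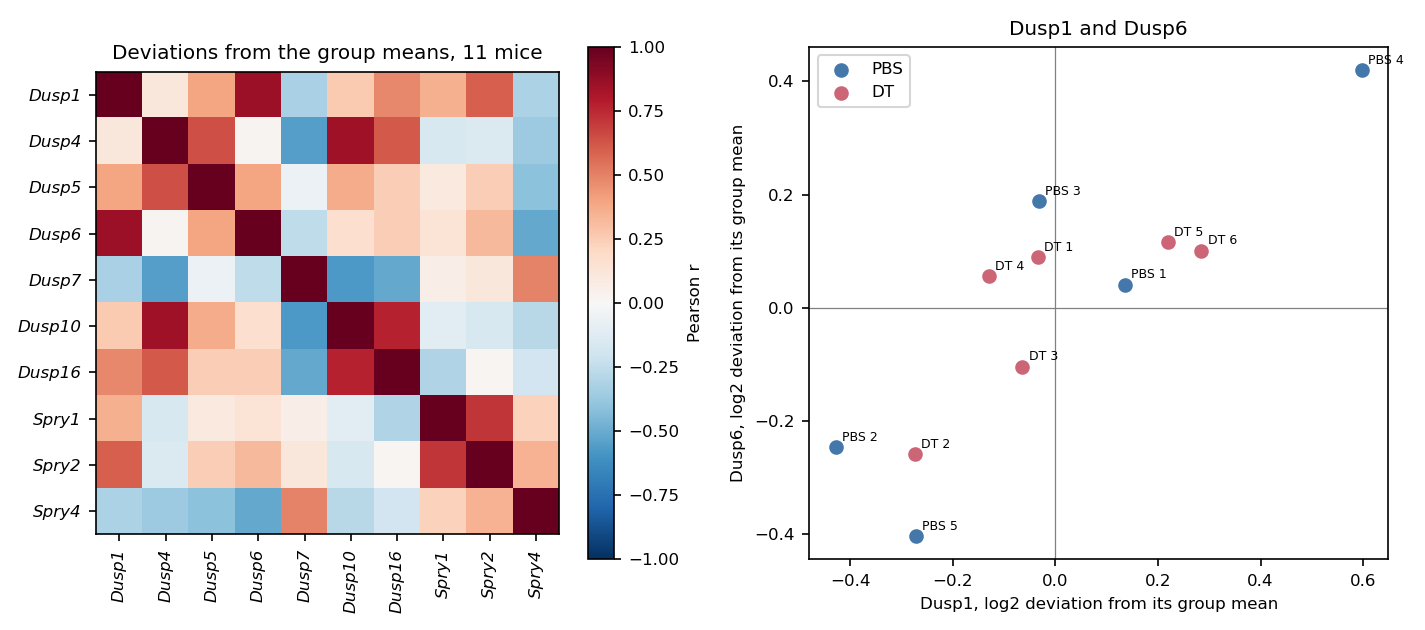
Left, Pearson's r over 11 mice between the deviations of each pair of genes from their group means on the log2 scale (red positive, blue negative). Right, these deviations for Dusp1 (horizontal) and Dusp6 (vertical) with each mouse named, in which PBS 4 lies highest and PBS 2 lowest on Dusp1 (r = 0.854).

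Across the 13477 genes averaging 10 or more normalized counts, genes whose deviations were most like those of Dusp1 included Fam214a (r = 0.963), Klf6 (0.950), Thbs1 (0.942) and Jun (0.935), over 11 mice. Klf6 and Jun are transcription factors of the immediate early class. For Dusp6 the 5 most alike were Aldh7a1 (0.944), Gadd45g (0.917), Dyrk1a (0.912), Slc7a5 (0.908) and Elavl1 (0.907). For Spry2 they included Frg2f1 (0.865), Errfi1 (0.864), Esyt3 (0.853) and Tnfrsf19 (0.851), among which Errfi1 encodes a feedback inhibitor of the EGF receptor. The highest of so many correlations are high by selection and are given as a description, with no test.
The 6 immediate early genes Ier2, Btg2, Junb, Fos, Jun and Atf3, described below, all varied with both Dusp1 and Dusp6 within groups. Their r ranged from 0.882 (Atf3) to 0.935 (Jun) for Dusp1 and from 0.757 (Atf3) to 0.892 (Ier2) for Dusp6. PBS 4 was the highest PBS-treated mouse in all 6 and in Dusp1 and Dusp6. How far these r values rest on PBS 4 was not tested. Phlda1, an ERK-induced gene, had r = 0.285 with Dusp1 and 0.292 with Dusp6.

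The other genes of the pathway were listed by role, but with earlier results of these data known, so their counts are not independent evidence of a direction. Of 125 such genes with values, 16 were higher and 0 were lower after DT, where 0.313% of all genes were higher, and 13 of the 16 were immediate early genes, which are transcribed within minutes of a stimulus. The list of immediate early genes had 19 genes with values and a median log2 difference of 0.97. At an unadjusted p under 0.05, where 11.5% of all genes lay, it had 15 higher genes and 1 lower. The lower was Srf (log2 difference -0.24, limma adjusted p = 0.196), and Egr3 (-0.036) and Nr4a2 (0.015) lay near 0. These genes were named after their values were seen. The 16 fell to 8 without PBS 1 or PBS 2, to 9 without DT 4 and to 7 without DT 5 or DT 6. Ier2 had 2694 ± 389 normalized counts (SD, n = 5) in PBS mice against 4533 ± 505 (SD, n = 6) in DT mice (log2 difference 0.75, SE 0.091, limma adjusted p = 0.00477). Btg2, an antiproliferative gene, rose by 0.76 and Junb by 0.68 on the log2 scale (limma adjusted p = 0.00815 for both). Fos and Jun, the partners of the AP-1 factor, rose by 1.70 and 1.11 (limma adjusted p = 0.00897 for both), and the stress-induced Atf3 by 2.68 (limma adjusted p = 0.00926). Each of these 6 genes passed in every one of the 11 fits without a mouse.
Nearest in kind to the 10 genes are their own relatives. Of the 11 other DUSP, Sprouty and Spred genes with values, 0 passed the threshold in limma and 2 had an unadjusted p under 0.05, as 11.5% of all genes did. The smallest was that of Dusp14 (3085 ± 446 after PBS, n = 5, and 3685 ± 266 after DT, n = 6; log2 difference 0.26, SE 0.082, limma adjusted p = 0.226). Dusp14 was past the threshold without PBS 3 (0.34, limma adjusted p = 0.0806), with array weights (0.32, limma adjusted p = 0.098) and without PBS 3 and PBS 5 (0.39, limma adjusted p = 0.00727). Dusp8, chosen after its values were seen, was the other, with a log2 difference of -0.23 (SE 0.073, limma adjusted p = 0.235).

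Of 20 other negative regulators of receptor, Ras and ERK signaling, 1 was higher, namely Socs3, an inhibitor of cytokine receptor signaling. It had 535, 329, 337, 1378 and 326 normalized counts across PBS 1 to PBS 5, against 864 to 1855 in the DT mice. The groups overlapped through PBS 4 (log2 difference 1.50, SE 0.31, limma adjusted p = 0.061), and Socs3 passed in 3 of the 11 fits without a mouse, those without PBS 4, PBS 5 or DT 2. PBS 4 was also the PBS-treated mouse with the highest Dusp1 and Dusp6. At an unadjusted p under 0.05, where 11.5% of all genes lay, this list had 2 higher and 3 lower genes. Sh2b3, Cic and Cbl were the lower ones, named after their values were seen, and in Sh2b3, an adaptor that restrains cytokine signaling, every DT-treated mouse was below every PBS-treated mouse (log2 difference -0.32, limma adjusted p = 0.118), as in 0.751% of all genes.
Of 13 EGF and FGF family ligands with values, 1 was higher: Areg, a ligand of the EGF receptor, had 62.2 ± 17.4 normalized counts (SD, n = 5) in PBS mice against 127 ± 39.6 (SD, n = 6) in DT mice (log2 difference 1.01, SE 0.22, limma adjusted p = 0.0784) and passed in 5 of the 11 fits, losing its call without PBS 1, PBS 2, DT 1, DT 4, DT 5 or DT 6. At an unadjusted p under 0.05, where 11.5% of all genes lay, the ligands had 4 higher genes and 1 lower. Besides Areg the higher ones, named after their values were seen, were Hbegf, Ereg and Epgn. Their log2 differences were 0.71, 0.35 and 0.58 (limma adjusted p = 0.126, 0.186 and 0.266). The lower was Fgf2 (-1.12, limma adjusted p = 0.313), near the floor at means of 2.02 normalized counts after PBS and 0.332 after DT. Of 16 receptors and adaptors, 17 genes of the Ras, Raf, MEK and ERK cascade and 18 of the JNK and p38 cascades, 0 passed the threshold in limma, with 2, 2 and 2 at an unadjusted p under 0.05, a share near the 11.5% of all genes at such a p. The smallest p in each list belonged to the adaptor Gab1 (log2 difference 0.14, SE 0.049, limma adjusted p = 0.266), the scaffold Ksr1 (-0.26, SE 0.093, limma adjusted p = 0.290) and the p38 substrate kinase Mapkapk3 (0.14, SE 0.056, limma adjusted p = 0.344). Mapkapk3 passed without PBS 3 and PBS 5 (0.21, limma adjusted p = 0.0339), a fit in which 42 of the pathway genes and 1967 of all genes passed. Of 11 ERK-induced genes with values, 1 was higher: Phlda1 had 324 ± 65.2 normalized counts (SD, n = 5) in PBS mice against 584 ± 175 (SD, n = 6) in DT mice (log2 difference 0.82, SE 0.18, limma adjusted p = 0.0782), passing in 6 of the 11 fits and losing its call without PBS 1, PBS 2, DT 4, DT 5 or DT 6. At an unadjusted p under 0.05, where 11.5% of all genes lay, this list had 3 higher genes and 1 lower. Besides Phlda1 these were, named after their values were seen, Ier3 (log2 difference 0.41, limma adjusted p = 0.235), Fosl1 (0.60, limma adjusted p = 0.261) and the ETS factor Etv5 (-0.42, limma adjusted p = 0.364).

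**Figure D4:**
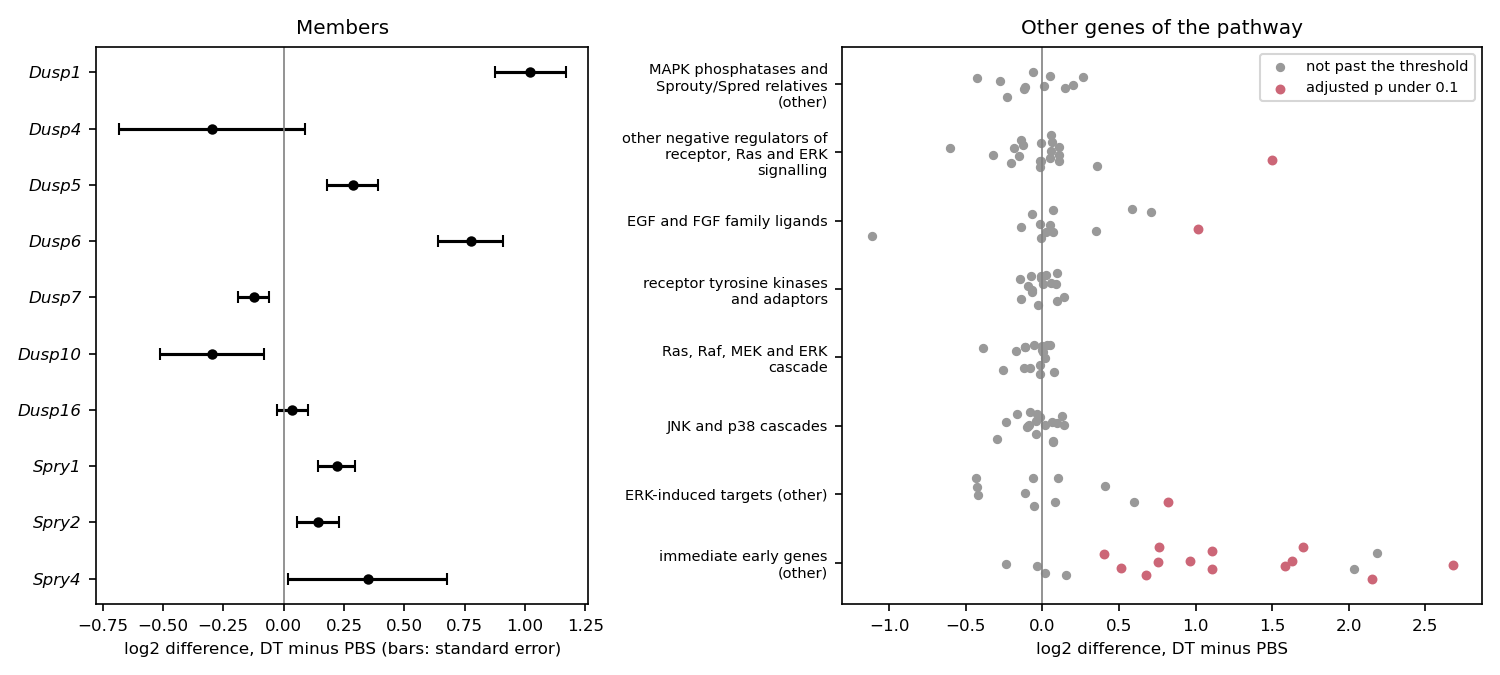
Log2 difference, DT minus PBS, of the 10 genes (left, with SE) and of the other genes of the pathway by role (right, red where the limma adjusted p was under 0.1, 1 point per gene). Dusp1 at 1.02 and Dusp6 at 0.77 lie furthest from 0 on the left, and on the right 13 of the 16 genes past the threshold are immediate early genes.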

How the data were processed

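Epithelium of langerin-DTR mice (PBS n = 5, DT n = 6) was sequenced from poly(A)-selected, stranded libraries. The study's reporting summary names a stranded mRNA kit, whereas its methods say that reads were processed by the QuantSeq guide. That guide is for libraries made from transcript ends, and the conflict was not resolved here. The authors trimmed reads with cutadapt, aligned them with TopHat2, counted them per gene with HTSeq and divided counts by DESeq2 size factors. The submitters' processing notes name GRCm39 and the study's methods GRCm38, so no gene coordinates are given; promoter coordinates are those of the RefSeq table. The authors deposited normalized counts, handled here as a score rather than as counts. All columns of per-mouse values were used, and 36244 of 55414 genes are listed without a value. The lowest values were whole multiples of 1 read, which gave the depth (17509328 to 24325513 reads per mouse).

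DT and PBS were compared with limma 3.58.1 (R 4.3.3) on log2(normalized count + 1), with the variance trended on the mean, over 19170 genes, with Benjamini-Hochberg adjustment and a threshold of 0.1, as in the study. A pseudocount of 1 understates changes of low genes. Tested on simulated data, the fit recovered 200 of 200 genes changed 2-fold among 19170, with 17 false calls. The simulation gave every gene the same relative spread, changed only genes well above the lowest levels and held no outlying mouse. It therefore does not show what share of such changes the fit finds in these data, where spread differs between genes. Correlations used 100000 permutations of mice within groups, and single values exact permutation tests (462 splits, two-sided). Lengths came from GENCODE M21 (19117 of 19170 genes matched). The 10 genes, the pathway and marker lists and the named genes were chosen with earlier results of these data known. Named besides the 10 were, per list, genes past the threshold (at most 6, by p) or else the gene of smallest p, and the 5 genes most like Dusp1, Dusp6 and Spry2. This rule gave 2 further genes that are not reported here. Replicate numbers were checked for pairing: deviations of same-numbered mice correlated between -0.233 and 0.324. Mice were not treated as paired, although these correlations cannot exclude a shared origin of same-numbered mice. The labels do not say whether mice shared a litter or a cage, so p-values measure only the spread between these samples. The S numbers in the sample titles were lower for every PBS-treated mouse than for every DT-treated mouse. What they stand for is not stated, and anything tied to their order cannot be told apart from the treatment. Alternatives were other pseudocounts, a filter at a mean of 10, trimmed mean of M-values scaling, array weights, blocks on replicate numbers, other transcript lengths and leaving out mice.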

Additional observations from a re-analysis of the deposited data

Results flagged for a closer look

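Within the PBS group, PBS 4 stood apart from the other 4 mice in Socs3, at 1377.8 normalized counts, where its gap to the next mouse was 0.801 of the range of the group (critical value 0.71). PBS 4 also stood apart in Atf3, at 731.25 normalized counts, with a gap of 0.9 of the range. Of 48 groups of values tested in this way, 2 stood out, and about 1 in 20 does by chance. None of the 10 genes had a mouse that stood out in this way.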

How the results depend on the processing

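Over 19 alternatives the log2 difference lay between 0.92 and 1.17 for Dusp1 and between 0.67 and 0.88 for Dusp6, given as a description since the members were chosen on this comparison. The members past the threshold numbered 2 in each of the 11 fits without a single mouse and 3 without PBS 3 and PBS 5, where Dusp5 was added. Genes called over the whole table numbered 107. They were 189 with array weights, from 27 (without DT 5) to 259 (without PBS 5) without a mouse, and 1967 without PBS 3 and PBS 5. Other pathway genes called numbered 16, from 7 to 20 without a mouse, and 42 without PBS 3 and PBS 5. Correlated pairs numbered 0, and from 0 to 1 without a mouse (1 without DT 1). A replicate block by title number gave 35 genes, 2 members and 10 pathway genes, and a block by library number gave 0 genes, 0 members and 0 pathway genes in limma (1404 genes at an unadjusted p under 0.05). Whether same-numbered mice shared anything else is not stated. By title 3 of 10 mice, and by library 1 of 10, were closest to the mouse of their own number. Each block drops the DT-treated mouse with no partner. Signs turned for Dusp16, which ran from -0.018 (without PBS 2) to 0.073 (without PBS 4), and for Dusp4, which ran from -0.57 (without PBS 2) to 0.0076 (without DT 3) and was 0.134 without PBS 3 and PBS 5; the cause was not tested. Differing neighbors in the level order numbered 7, 8 by coding length and 6 by the length of all exons. An order of levels not divided by length was not tested. Over the log2 differences of the named genes, 32 values lost and 5 gained a call among 436 alternatives. Fits with edgeR and DESeq2, planned on recovered reads, were not run, since the deposited values were handled as normalized. Depth limits Spry4, at 2 to 10 reads.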
